A study of Mus musculus with 12 samples.

Results

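The mitosis and chromosome segregation genes described here are 40 protein-coding genes chosen by name for their roles in cell division, from the cyclins that start mitosis to the proteins that cut the daughter cells apart. All 40 were found by gene symbol among the 23940 genes of the table, and all 40 passed the filter on low values (a mean of at least 1 FPKM), as did 12117 genes in all. Messenger RNA was sequenced from 12 tumors of YUMM1.7, a melanoma line of mouse origin that carries activated Braf, in 4 groups of 3 tumors. The labels give PD-L2 overexpression (Pdl2OE) with a BRAF inhibitor (BRAFi), PD-L2 overexpression with vehicle (DMSO), control (Ctrl) with BRAFi and control with DMSO. They are called PD-L2 BRAFi, PD-L2 vehicle, control BRAFi and control vehicle tumors below. All tumors grew in immunodeficient mice, which the sample labels call NSG and the design text calls NOD/SCID and which lack mature T and B cells. The design text speaks of resistance to the inhibitor, while the labels give only the treatment. The drug, its dose and duration, the promoter that drives PD-L2, the age of the mice and the number of cell clones are not stated. A single tumor line was used, and the labels name separate tumors without saying whether they came from separate mice, so p-values measure the spread between these tumors.

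A dividing cell enters mitosis when cyclin B bound to the kinase CDK1 becomes active, attaches its chromosomes to spindle microtubules through kinetochores, and waits at the spindle checkpoint until every chromosome is attached. The anaphase-promoting complex then marks securin and cyclin B for destruction, the sister chromatids part and the cell divides. Most of these genes are transcribed in the G2 phase and in mitosis under the MuvB complex with B-Myb and FoxM1, which acts through a promoter element named CHR, together with NF-Y, which binds CCAAT boxes. The level of this set in a bulk tumor is therefore widely read as a measure of the share of cycling cells. A bulk value cannot tell fewer dividing cells apart from less RNA per dividing cell, nor tumor cells apart from dividing host cells.

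Levels are in FPKM, which counts fragments relative to transcript length and library size. Depth is unknown, because the table holds no read counts. FPKM sums ran from 499845 to 648254 and 16269 to 17469 genes were above 0. Pdcd1lg2, the gene of PD-L2, followed the labels, at 20.8 to 176 FPKM in the 6 PD-L2 tumors and 0.133 to 3.54 FPKM in the 6 control tumors. It was uneven among the PD-L2 BRAFi tumors 1, 2 and 3, at 176, 20.8 and 171 FPKM. Tumor 2 of that group lay below all PD-L2 vehicle tumors (41.3, 58.2 and 114 FPKM). Among 13 melanocyte markers, Pax3 (7.15 to 12.8 FPKM) and Mitf (2.32 to 5.16 FPKM) were present in all 12 tumors. Of the pigment genes, Dct, Tyrp1 and Mlana stayed at or below 0.169 FPKM, while Pmel measured 0.156 to 0.603 FPKM and Tyr 0.535 to 1.63 FPKM. The 12 macrophage markers summed to 499 to 1700.5 FPKM in PD-L2 BRAFi tumors and 970.0 to 2176 FPKM in PD-L2 vehicle tumors, and to 703 to 1433 FPKM in control BRAFi tumors and 2041 to 3211 FPKM in control vehicle tumors. The 5 erythroid markers summed to 164 to 262 FPKM in PD-L2 BRAFi tumors and 132 to 372 FPKM in PD-L2 vehicle tumors, and to 31.1 to 44.7 FPKM in control BRAFi tumors and 170.4 to 269 FPKM in control vehicle tumors. In PD-L2 BRAFi tumor 2 a single microRNA gene, Mir2137, took 16.1% of the FPKM sum, and it was at 0 elsewhere.

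The promoters of the set share these sequence elements. RefSeq windows from 250 bases before to 50 bases after the start of transcription (GRCm38.p6) were matched by symbol for 33 of the 40 genes and gave 36 windows, since Bub3, Ect2 and Prc1 have 2 starts each. The core of the CHR was searched as TTTGAA or TTCGAA and the CCAAT box as CCAAT, both on either strand, so that TTCAAA and ATTGG also count. A CHR core stood in 29 of the 36 windows (80.556%), against 19.226% of the 32851 windows of all genes. A CCAAT stood in 28 windows (77.778%, against 37.408% of all windows), 2 or more CCAAT in 20 windows (55.556%, against 11.695%), and both elements in 26 windows (72.222%, against 7.525%). The windows below belong to 4 of the 5 genes that passed the test under BRAFi (described further on; Aurkb, the other one, had no matched window) and to Top2a, which did not pass. They are written 5′ to 3′ on the strand of the gene, with the elements in capitals.
Birc5: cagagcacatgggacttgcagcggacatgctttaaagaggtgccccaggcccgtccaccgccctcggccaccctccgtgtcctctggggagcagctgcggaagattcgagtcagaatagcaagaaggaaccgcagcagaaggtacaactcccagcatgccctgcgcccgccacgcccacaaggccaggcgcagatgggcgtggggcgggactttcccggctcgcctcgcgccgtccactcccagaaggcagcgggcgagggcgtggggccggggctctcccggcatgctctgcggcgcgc
Ccnb2: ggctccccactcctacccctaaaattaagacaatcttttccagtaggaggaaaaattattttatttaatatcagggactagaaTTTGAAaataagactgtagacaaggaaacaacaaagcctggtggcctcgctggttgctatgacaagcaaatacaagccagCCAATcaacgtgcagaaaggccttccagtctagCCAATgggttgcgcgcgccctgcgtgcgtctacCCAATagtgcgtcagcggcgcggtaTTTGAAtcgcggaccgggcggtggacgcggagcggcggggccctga
Cdca8: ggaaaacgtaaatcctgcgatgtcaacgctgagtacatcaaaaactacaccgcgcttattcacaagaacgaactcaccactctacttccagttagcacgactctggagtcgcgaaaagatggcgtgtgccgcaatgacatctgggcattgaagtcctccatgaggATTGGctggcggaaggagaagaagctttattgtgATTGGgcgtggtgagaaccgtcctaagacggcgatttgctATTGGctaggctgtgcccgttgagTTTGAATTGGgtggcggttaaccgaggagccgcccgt
Cenpa: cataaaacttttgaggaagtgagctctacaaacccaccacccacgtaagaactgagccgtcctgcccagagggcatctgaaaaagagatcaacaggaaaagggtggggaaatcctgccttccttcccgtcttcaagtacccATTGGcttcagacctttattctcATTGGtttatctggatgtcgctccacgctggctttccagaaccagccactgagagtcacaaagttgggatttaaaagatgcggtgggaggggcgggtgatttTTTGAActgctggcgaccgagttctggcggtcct
Top2a: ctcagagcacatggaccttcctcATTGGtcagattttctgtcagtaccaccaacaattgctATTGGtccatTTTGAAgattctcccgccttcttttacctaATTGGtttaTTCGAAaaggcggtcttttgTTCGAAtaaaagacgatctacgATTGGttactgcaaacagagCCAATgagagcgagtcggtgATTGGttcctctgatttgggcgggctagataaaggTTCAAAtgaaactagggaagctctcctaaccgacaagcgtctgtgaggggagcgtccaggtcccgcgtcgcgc

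These windows are chr11:117848987-117849286 on the plus strand (Birc5), chr9:70421505-70421804 on the minus strand (Ccnb2), chr4:124936868-124937167 on the minus strand (Cdca8), chr5:30666636-30666935 on the plus strand (Cenpa) and chr11:99024140-99024439 on the minus strand (Top2a). Ccnb2, Cdca8 and Cenpa each hold a CHR core just after the start, its first base at position 5, 14 and 17 in that order, with 3, 4 and 2 CCAAT. Positions count from the start, and Ccnb2 holds a second core at -167. In Cdca8 the last base of the core is also the first base of an ATTGG at 19. Top2a holds 4 CHR cores and 6 CCAAT, all upstream of its start. The Birc5 window holds neither set of letters, which says only that they are not in this window. A match is a string of letters and not evidence of binding.

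The 40 genes spanned a wide range of levels. On the FPKM scale, which is per length, the highest mean over the 12 tumors was that of Ube2c at 98.9 FPKM and the lowest that of Espl1 at 5.06 FPKM. Summed over the 40 genes, FPKM came to 834, 880.1 and 779 in the PD-L2 BRAFi tumors 1, 2 and 3 against 958, 926 and 1141 in the PD-L2 vehicle tumors, and to 1035, 861 and 1039.8 in the control BRAFi tumors against 905, 1059.8 and 978 in the control vehicle tumors. All 3 PD-L2 BRAFi sums lay below all 3 PD-L2 vehicle sums, while the sums of the control groups overlapped. As a level that weights each gene alike, the median over the 40 genes of each tumor's log2(FPKM + 1) minus the gene's mean over the 12 tumors was -0.19, -0.031 and -0.24 in the PD-L2 BRAFi tumors against -0.0015, -0.034 and 0.23 in the PD-L2 vehicle tumors. It was 0.14, -0.10 and 0.16 in the control BRAFi tumors against -0.17, 0.21 and 0.041 in the control vehicle tumors. The tumors of a group differed by an SD of 0.15 on this scale (pooled over the 4 groups), about as much as the groups did. PD-L2 vehicle tumor 3 held the highest value of the 12 tumors for 11 genes, control vehicle tumor 1 the lowest for 11 genes, and PD-L2 BRAFi tumor 3 the lowest for 14 genes.

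**Figure D1:**
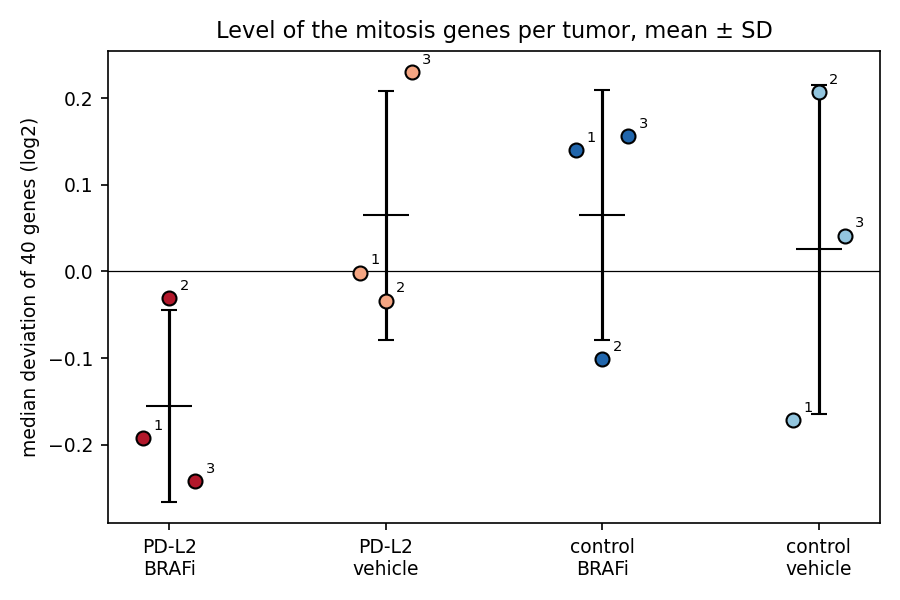
Level of the 40 mitosis genes in each tumor, as the median over genes of log2(FPKM + 1) minus the gene's mean over the 12 tumors. Points are tumors with their number, the short bar is the group mean and the whisker its SD (n = 3), and the PD-L2 BRAFi tumors lie between -0.24 and -0.031 while the PD-L2 vehicle tumors lie between -0.034 and 0.23, the control BRAFi tumors between -0.10 and 0.16 and the control vehicle tumors between -0.17 and 0.21.

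**Figure D2:**
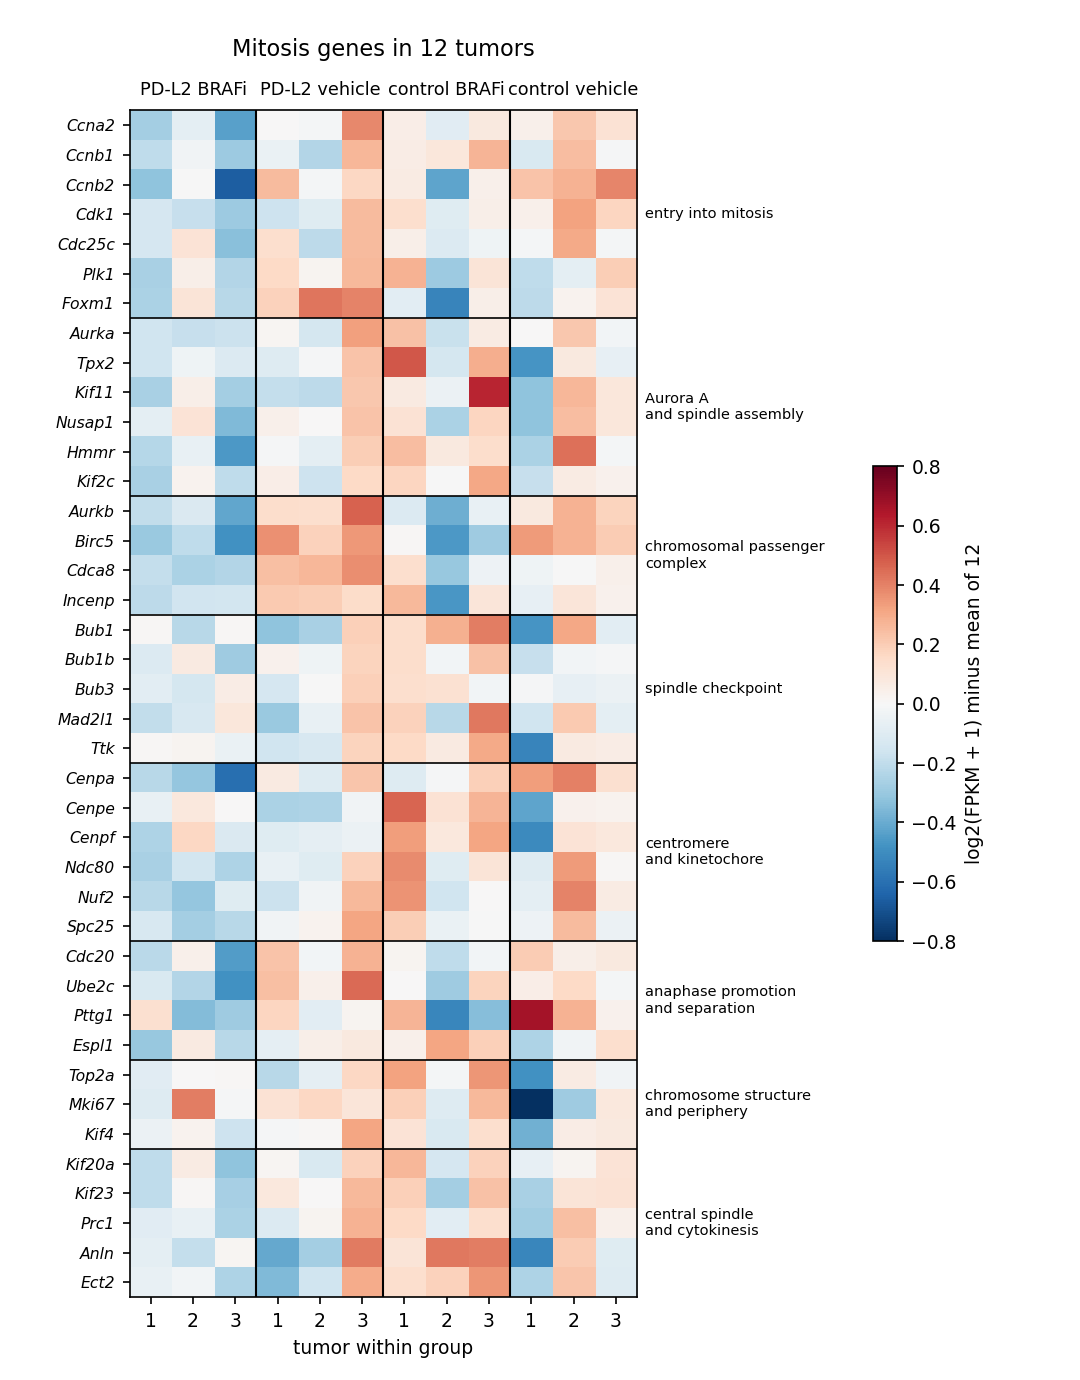
log2(FPKM + 1) minus the gene's mean over the 12 tumors (color), for each of the 40 genes (rows, by role) in each tumor (columns, by group). The PD-L2 BRAFi tumors 1, 2 and 3 are above the mean for 3, 17 and 6 genes, against 38 genes in PD-L2 vehicle tumor 3, and control vehicle tumor 1 is above it for 10 genes.

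Fold changes below are differences of group means on the log2(FPKM + 1) scale, given with their standard error (SE), and adjusted p-values are from limma over all 12117 genes with a threshold of 0.05. A first question is how the set responded to BRAFi within PD-L2 tumors and within control tumors, which share no library. In PD-L2 tumors, 34 of the 40 genes had a fold change below 0 (48.9% of all genes did) and the median was -0.20, against 0.0068 over all genes; without PD-L2 vehicle tumor 3 the median was -0.11, with 30 genes below 0. None passed the adjusted threshold, which 0.239% of all genes passed, and 11 had an unadjusted p under 0.05, all lower (27.5% of the set, against 10.4% of all genes on the lower side). The 3 PD-L2 BRAFi tumors lay below the 3 PD-L2 vehicle tumors without overlap for 11 genes (27.5%, against 14.3% of all genes) and above them for none. In control tumors, 16 of the 40 genes had a fold change below 0 (48.0% of all genes) and the median was 0.065, against 0.016 over all genes. Birc5 alone passed and fell, 2.5% of the set, while 7.42% of all genes passed and 3.91% passed as lower. The control groups did not overlap for 4 genes that were lower and 1 that was higher, 12.5% of the set against 36.1% of all genes. The number of all genes that passed in control tumors, 899, is itself unstable: in limma leaving out control vehicle tumor 1, 2 or 3 gave 2, 0 or 1657 genes, and leaving out control BRAFi tumor 1, 2 or 3 gave 413, 14 or 74. Leaving out PD-L2 vehicle tumor 1, 2 or 3, which enter the same fit, gave 205, 15 or 464 genes, and leaving out PD-L2 BRAFi tumor 1 gave 127, so nothing is read from the set's share beside it. The direction in control tumors depended on single tumors and on scaling: the median was -0.049 without control vehicle tumor 1, with 23 genes below 0, and 0.15 without control BRAFi tumor 2, with 9 genes below 0.

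Markers of other cell types were tested in the same comparisons, and their part in the results was not tested. Under BRAFi, 11 of the 12 macrophage markers had a fold change below 0 in PD-L2 tumors (median -0.50) and in control tumors (median -0.87). The 9 tested endothelial markers were all above 0 in PD-L2 tumors (median 0.30), and 4 of them were in control tumors (median -0.36). Of the 7 tested fibroblast and pericyte markers, 5 were above 0 in PD-L2 tumors (median 0.41) and 6 in control tumors (median 0.42). Of the 7 tested skeletal muscle markers, 6 were below 0 in PD-L2 tumors (median -0.24) and 7 in control tumors (median -1.64). The summed FPKM of the muscle list was 2.57, 1.93 and 160.3 in PD-L2 BRAFi tumors against 15.04, 97.2 and 1.83 in PD-L2 vehicle tumors, and 11.5, 1.77 and 1.25 in control BRAFi tumors against 7.24, 2.25 and 432 in control vehicle tumors. The highest sum was in control vehicle tumor 3. Among these and the 4 tested neutrophil markers none passed. In control tumors 3 of the 4 tested erythroid markers fell. Of the 6 tested melanocytic markers, 4 were above 0 in PD-L2 tumors (median 0.11), where none passed. In control tumors 4 were also above 0 (median 0.12), and 1 passed as higher. Sox10, at 2.38 ± 0.86 in control tumors, did not pass (adjusted p = 0.0926, limma).

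Averaged over the PD-L2 and control tumors, 5 genes fell under BRAFi: Birc5, Aurkb, Cdca8, Cenpa and Ccnb2. They make up 12.5% of the set, against 11.2% of all genes that fell and 24.7% that passed in either direction, so the share near the background is no result about the set. No gene of the set rose, although Cenpe (0.30) passed as higher without control vehicle tumor 3, without PD-L2 vehicle tumor 3, with array weights and with libraries rescaled to the same FPKM sum. A fold change below 0 was found for 25 of 40 (48.7% of all genes), or 18 with that rescaling. Without PD-L2 BRAFi tumor 2 the count of genes past the threshold was 8, and it was 3 without control vehicle tumor 1 or 2, PD-L2 vehicle tumor 1, control BRAFi tumor 2 or PD-L2 BRAFi tumor 3.

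**Figure D3:**
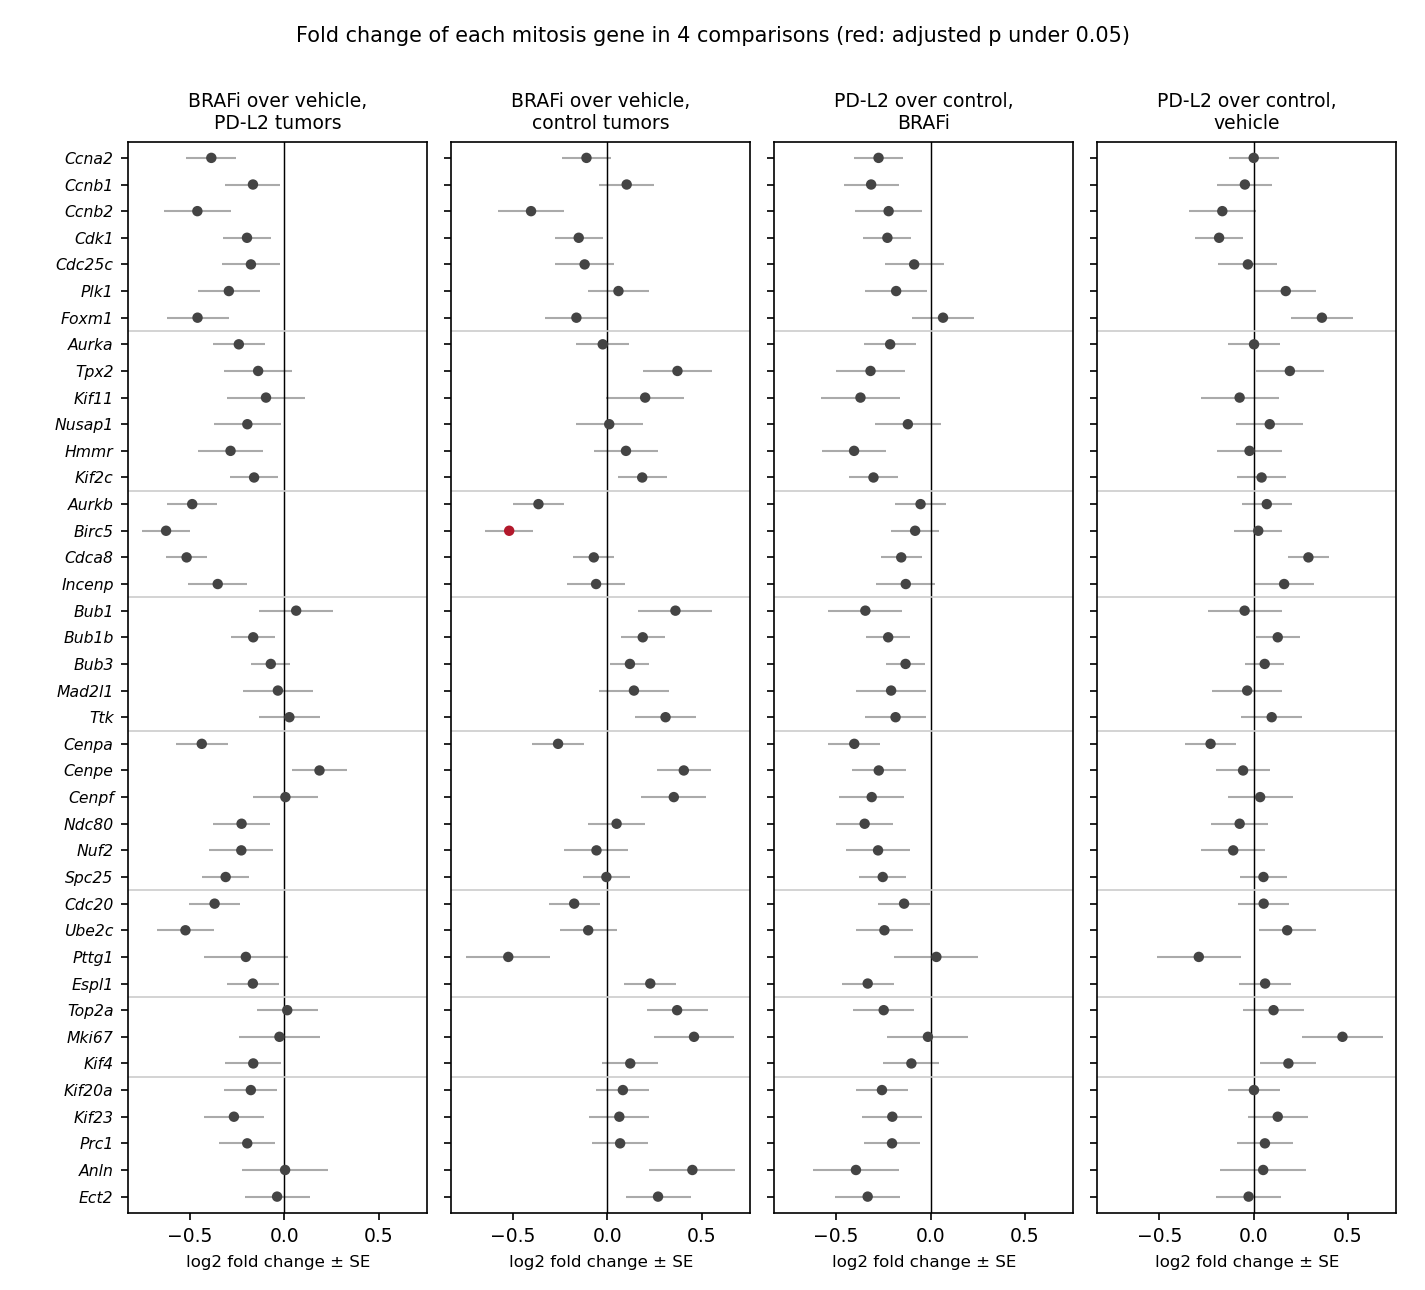
log2 fold change (points) and SE (lines) of each of the 40 genes in 4 comparisons, with red for an adjusted p under 0.05 and gray lines between the roles. For PD-L2 tumors under BRAFi 34 points lie left of 0, for PD-L2 over control under BRAFi 38 do, and the only red point is Birc5 in control tumors.

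The chromosomal passenger complex held 3 of the 5 genes that fell on average and had the lowest median of the roles in PD-L2 tumors (-0.50) and in control tumors (-0.22). As the 5 calls were near the share of all genes, this is a description and no result about the role. Its 4 genes have transcripts of 1445 nt (Cdca8) to 2939 nt (Incenp), and fold changes under BRAFi followed transcript length (described further on). It is the complex of Aurora B kinase, its scaffold INCENP, survivin and borealin, which corrects wrong attachments at the centromere and later organizes the cleavage of the cell. Birc5, which encodes survivin, measured 34.9, 37.3 and 30.5 FPKM in PD-L2 BRAFi tumors against 55.9, 49.1 and 55.1 FPKM in the PD-L2 vehicle tumors. In control tumors it measured 43.4, 31.1 and 35.2 FPKM under BRAFi against 54.9, 52.5 and 49.8 FPKM under vehicle. Birc5 was lower in all 6 BRAFi tumors than in all 6 vehicle tumors, though the share of all genes that did this was not counted. Its fold change was -0.63 ± 0.13 in PD-L2 tumors (adjusted p = 0.0680, limma), -0.52 ± 0.13 in control tumors (adjusted p = 0.0418) and -0.57 ± 0.091 on average (adjusted p = 0.00659). Its group means were 34.3 ± 3.45 and 53.4 ± 3.72 FPKM in PD-L2 BRAFi and vehicle tumors and 36.5 ± 6.26 and 52.4 ± 2.55 FPKM in control BRAFi and vehicle tumors (SD, n = 3 each). The call in control tumors was lost, with an adjusted p of 0.0543 to 0.154, without control vehicle tumor 1 or 2, any one of the 3 PD-L2 vehicle tumors, control BRAFi tumor 2 or 3, or PD-L2 BRAFi tumor 1. The average call of Birc5 passed under each of the 24 alternatives run.

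Aurkb, the kinase of the complex, measured 16.8, 17.8 and 14.3 FPKM in PD-L2 BRAFi tumors against 21.4, 21.3 and 27.3 FPKM in PD-L2 vehicle tumors. Control BRAFi tumors had 17.9, 14.5 and 18.5 FPKM against 20.5, 23.7 and 22.1 FPKM in control vehicle tumors. As for Birc5, no BRAFi tumor reached the level of any vehicle tumor, a separation whose share among all genes was not counted. The fold changes were -0.49 ± 0.13 (PD-L2) and -0.37 ± 0.13 (control), and the average of -0.43 ± 0.094 passed (adjusted p = 0.0136, limma). Cdca8, which encodes borealin, measured 16.9, 16.2 and 16.4 FPKM in PD-L2 BRAFi tumors against 23.1, 23.6 and 25.5 FPKM in PD-L2 vehicle tumors. Its values were 21.4, 15.6 and 18.9 FPKM in control BRAFi tumors against 18.99, 19.4 and 20.03 FPKM in control vehicle tumors. The PD-L2 groups stood clear of each other, while the control vehicle tumors fell inside the range of the control BRAFi tumors. Its fold change was -0.52 ± 0.11 in PD-L2 tumors (adjusted p = 0.0680, limma), -0.073 ± 0.11 in control tumors (adjusted p = 0.665) and -0.30 ± 0.077 on average (adjusted p = 0.0218). In PD-L2 tumors Cdca8 passed in 2 of 25 alternatives (adjusted p 0.000355 to 0.220, limma). These were array weights and leaving out control BRAFi tumor 2, which shares only the estimate of the spread with that comparison (adjusted p = 0.0400). Its average call passed in 21 of 24 alternatives. It was lost at the same FPKM sum and with the length trend removed, without or with a replicate block. The average call of Aurkb passed in 23 of 24 and was lost with the length trend removed and that block (adjusted p = 0.0561, limma). Incenp, the scaffold, had fold changes of -0.35 ± 0.16 in PD-L2 tumors, where its groups did not overlap, and -0.060 ± 0.16 in control tumors, where they did.

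**Figure D4:**
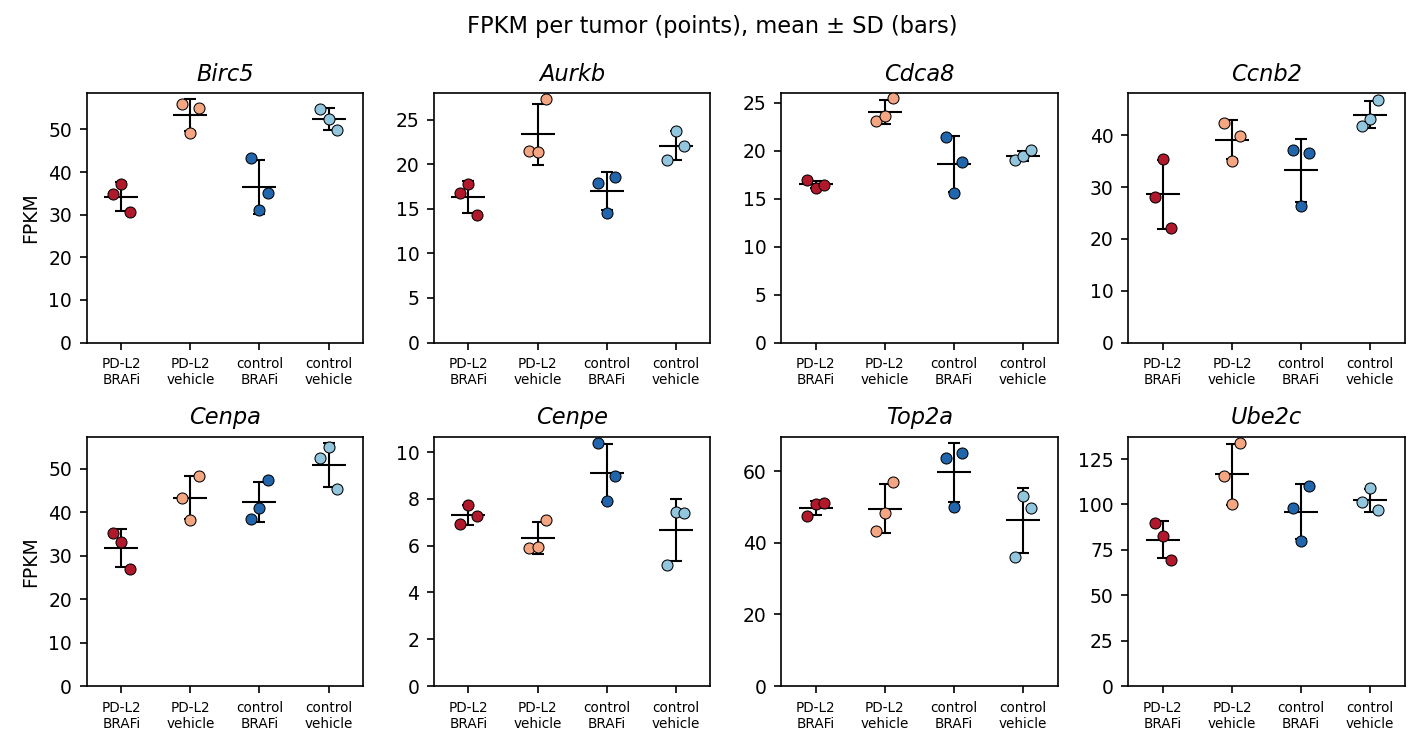
FPKM of 8 mitosis genes in each tumor (points), with group mean and SD (bars, n = 3), on linear axes that start at 0. Birc5 and Aurkb are lower in all 6 BRAFi tumors than in all 6 vehicle tumors, Cdca8 and Ube2c separate by treatment only among PD-L2 tumors, and Cenpe is highest in control BRAFi tumors. The share of all genes lower in all 6 BRAFi tumors was not counted.

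Of the 7 genes for entry into mitosis, all 7 had a fold change below 0 in PD-L2 tumors (median -0.29) and 5 in control tumors (median -0.12). Ccnb2, a B-type cyclin that activates CDK1, measured 28.2, 35.4 and 22.1 FPKM in PD-L2 BRAFi tumors against 42.4, 35.1 and 39.9 FPKM in PD-L2 vehicle tumors. Control BRAFi tumors had 37.1, 26.3 and 36.5 FPKM and control vehicle tumors 41.8, 43.2 and 46.8 FPKM. PD-L2 BRAFi tumor 2 just overlapped the PD-L2 vehicle tumors and the control groups did not overlap. The fold changes were -0.46 ± 0.18 (PD-L2) and -0.40 ± 0.18 (control), and the average of -0.43 ± 0.12 passed (adjusted p = 0.0310, limma). It passed in 12 of the 24 alternatives (adjusted p 0.00506 to 0.193). Among the 12 fits that each leave out a tumor it did not pass without control vehicle tumor 1, 2 or 3, PD-L2 vehicle tumor 1 or 3, control BRAFi tumor 2, or PD-L2 BRAFi tumor 1 or 3.

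Ccna2, or cyclin A2, which acts in S phase and early mitosis, measured 37.9, 43.5 and 33.9 FPKM in PD-L2 BRAFi tumors against 46.2, 45.5 and 60.5 FPKM in PD-L2 vehicle tumors, with no overlap. Its control BRAFi values of 47.7, 43.1 and 48.8 FPKM overlapped the control vehicle values of 47.4, 53.7 and 49.9 FPKM. The fold changes were -0.39 ± 0.13 and -0.11 ± 0.13, and neither passed. Cdk1, the kinase that drives entry, measured 28.7, 27.6 and 25.7 FPKM in PD-L2 BRAFi tumors against 27.96, 29.4 and 37.8 FPKM in PD-L2 vehicle tumors. It measured 34.6, 29.4 and 32.6 FPKM in control BRAFi tumors against 32.5, 39.6 and 35.7 FPKM in control vehicle tumors, so that treatment groups overlapped in both kinds of tumor. Of the other 4, Foxm1, the transcription factor of this program, had fold changes of -0.46 ± 0.16 (PD-L2, no overlap) and -0.16 ± 0.16 (control). Those of the second B-type cyclin, Ccnb1, were -0.17 ± 0.15 and 0.10 ± 0.15, those of the kinase Plk1 -0.29 ± 0.16 and 0.058 ± 0.16, and those of the CDK1-activating phosphatase Cdc25c -0.18 ± 0.16 and -0.12 ± 0.16, PD-L2 tumors first.

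The 6 genes of Aurora A and spindle assembly did not pass in either kind of tumor; all 6 had a fold change below 0 in PD-L2 tumors (median -0.18), and 5 had one above 0 in control tumors (median 0.14). Aurka, the kinase that matures the spindle poles, measured 17.5, 17.2 and 17.4 FPKM in PD-L2 BRAFi tumors, just below the 19.99, 17.8 and 25.02 FPKM of PD-L2 vehicle tumors. Its 23.4, 17.4 and 20.7 FPKM in control BRAFi tumors overlapped the 19.8, 23.1 and 19.4 FPKM of control vehicle tumors. Tpx2, which binds and activates Aurora A, measured 18.8, 20.6 and 19.5 FPKM in PD-L2 BRAFi tumors against 19.5, 20.96 and 24.96 FPKM in PD-L2 vehicle tumors. In control tumors it stood at 30.3, 19.1 and 26.1 FPKM under BRAFi against 14.9, 22.3 and 20.1 FPKM under vehicle. Both pairs overlapped, and the fold changes were -0.14 ± 0.18 (PD-L2) and 0.37 ± 0.18 (control). Hmmr, a microtubule-binding spindle protein, measured 9.44, 10.7 and 7.92 FPKM in PD-L2 BRAFi tumors against 11.1, 10.6 and 13.03 FPKM in PD-L2 vehicle tumors. The values in control tumors, 13.5, 11.9 and 12.5 FPKM under BRAFi and 9.28, 15.6 and 11.1 FPKM under vehicle, overlapped too. The spindle kinesin Kif11, the microtubule depolymerase Kif2c and the microtubule bundler Nusap1 had fold changes of -0.098, -0.16 and -0.20 in PD-L2 tumors and 0.20, 0.18 and 0.0093 in control tumors.

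The 5 spindle checkpoint genes, which hold back anaphase while a kinetochore is unattached, all had a fold change above 0 in control tumors (median 0.19), and 3 of 5 had one below 0 in PD-L2 tumors (median -0.035); none passed. Bub1, a checkpoint kinase, measured 9.98, 8.34 and 9.99 FPKM in PD-L2 BRAFi tumors against 7.74, 8.11 and 11.5 FPKM in PD-L2 vehicle tumors. It measured 11.02, 12.3 and 13.5 FPKM in control BRAFi tumors against 6.87, 12.5 and 9.28 FPKM in control vehicle tumors. Ttk, the kinase also known as Mps1, measured 6.77, 6.84 and 6.46 FPKM in PD-L2 BRAFi tumors against 5.94, 6.09 and 7.75 FPKM in PD-L2 vehicle tumors. Control BRAFi tumors had 7.63, 7.13 and 8.53 FPKM of it and control vehicle tumors 4.37, 7.13 and 7.08 FPKM, the lowest in tumor 1. For both kinases the treatment groups overlapped in each kind of tumor, with fold changes in control tumors of 0.36 ± 0.20 and 0.31 ± 0.16. Bub1b, which encodes BubR1, measured 15.03, 17.2 and 13.2 FPKM in PD-L2 BRAFi tumors against 16.7, 15.9 and 18.6 FPKM in PD-L2 vehicle tumors, and 18.04, 16.1 and 19.3 FPKM in control BRAFi tumors against 14.2, 16.1 and 16.2 FPKM in control vehicle tumors. Bub3, its partner, measured 49.4, 47.6 and 54.8 FPKM in PD-L2 BRAFi tumors against 47.8, 52.4 and 60.1 FPKM in PD-L2 vehicle tumors, and 57.7, 57.2 and 51.6 FPKM in control BRAFi tumors against 52.1, 50.1 and 50.8 FPKM in control vehicle tumors. Both overlapped in each pair. Mad2l1, the checkpoint protein Mad2, had fold changes of -0.035 ± 0.19 (PD-L2) and 0.14 ± 0.19 (control).

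The 6 centromere and kinetochore genes split, with Cenpa at one end and Cenpe at the other in both kinds of tumor. Cenpa, the histone H3 variant that marks centromeres, measured 35.3, 33.2 and 26.9 FPKM in PD-L2 BRAFi tumors against 43.4, 38.3 and 48.3 FPKM in PD-L2 vehicle tumors. It measured 38.4, 41.02 and 47.4 FPKM in control BRAFi tumors against 52.4, 54.9 and 45.2 FPKM in control vehicle tumors. The PD-L2 groups did not overlap and the control groups did. Its fold changes were -0.44 ± 0.14 (PD-L2) and -0.26 ± 0.14 (control), and the average of -0.35 ± 0.097 passed (adjusted p = 0.0271, limma). That call passed in 14 of the 24 alternatives (adjusted p 0.0213 to 0.590). It was lost without control vehicle tumor 1 or 2, PD-L2 vehicle tumor 1 or 3, control BRAFi tumor 1 or 2, or PD-L2 BRAFi tumor 3, and with the length trend removed its value was -0.076. Cenpe, a kinesin that moves chromosomes to the spindle equator, measured 6.92, 7.74 and 7.28 FPKM in PD-L2 BRAFi tumors against 5.91, 5.95 and 7.10 FPKM in PD-L2 vehicle tumors. With 10.4, 7.92 and 8.98 FPKM in control BRAFi tumors against 5.15, 7.44 and 7.41 FPKM in control vehicle tumors, it was the only gene of the 40 whose control BRAFi tumors all lay above the control vehicle tumors. Its fold changes of 0.19 ± 0.14 and 0.40 ± 0.14 did not pass (adjusted p = 0.474 and 0.0893, limma). The large kinetochore protein Cenpf had fold changes of 0.0050 ± 0.17 (PD-L2) and 0.35 ± 0.17 (control). Ndc80, Nuf2 and Spc25, subunits of the complex that grips microtubules, had -0.23, -0.23 and -0.31 in PD-L2 tumors and 0.048, -0.058 and -0.0058 in control tumors.

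All 4 genes of anaphase promotion and separation had a fold change below 0 in PD-L2 tumors (median -0.29), and 3 of 4 did in control tumors (median -0.14); none passed. Ube2c, the ubiquitin-conjugating enzyme of the anaphase-promoting complex, measured 89.6, 82.9 and 69.6 FPKM in PD-L2 BRAFi tumors against 116, 100.4 and 134 FPKM in PD-L2 vehicle tumors. Control BRAFi tumors had 97.9, 79.9 and 110.4 FPKM against 101, 109 and 96.7 FPKM in control vehicle tumors. The PD-L2 groups did not overlap and the control groups did, with fold changes of -0.52 ± 0.15 (adjusted p = 0.117, limma) and -0.10 ± 0.15. Pttg1, or securin, which holds separase in check, measured 26.96, 19.2 and 20.1 FPKM in PD-L2 BRAFi tumors against 27.9, 23.2 and 25.1 FPKM in PD-L2 vehicle tumors. Its 29.9, 16.9 and 19.2 FPKM in control BRAFi tumors overlapped the 39.7, 30.1 and 25.3 FPKM of control vehicle tumors, and the fold changes were -0.20 ± 0.22 and -0.53 ± 0.22. Espl1, or separase, which cuts the cohesin between sister chromatids, measured 3.87, 5.31 and 4.15 FPKM in PD-L2 BRAFi tumors against 4.72, 5.20 and 5.33 FPKM in PD-L2 vehicle tumors. It measured 5.19, 6.48 and 5.85 FPKM in control BRAFi tumors against 4.07, 4.91 and 5.60 FPKM in control vehicle tumors, again with overlap. Cdc20, the activator of the complex, had fold changes of -0.37 ± 0.14 (PD-L2) and -0.18 ± 0.14 (control, where the groups did not overlap).

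The 3 genes of chromosome structure and periphery had fold changes above 0 in control tumors (median 0.37) and a median of -0.026 in PD-L2 tumors; none passed. Top2a, the topoisomerase that untangles DNA, measured 47.5, 50.8 and 51.1 FPKM in PD-L2 BRAFi tumors, inside the range of the 43.4, 48.3 and 56.96 FPKM of PD-L2 vehicle tumors. It measured 63.7, 50.2 and 65.2 FPKM in control BRAFi tumors against 36.1, 53.1 and 49.7 FPKM in control vehicle tumors. Mki67, the source of the Ki-67 proliferation antigen, measured 17.8, 25.8 and 19.1 FPKM in PD-L2 BRAFi tumors against 20.8, 21.7 and 20.6 FPKM in PD-L2 vehicle tumors. Control BRAFi tumors had 21.98, 17.8 and 23.1 FPKM of it against 10.3, 15.6 and 20.4 FPKM in control vehicle tumors. Both genes overlapped in each pair, and their fold changes in control tumors, 0.37 ± 0.16 and 0.46 ± 0.21, did not pass (adjusted p = 0.147 and 0.170, limma). Kif4, a chromosome-bound kinesin, measured 7.11, 7.54 and 6.48 FPKM in PD-L2 BRAFi tumors against 7.33, 7.42 and 9.41 FPKM in PD-L2 vehicle tumors, and 8.03, 6.69 and 8.20 FPKM in control BRAFi tumors against 5.42, 7.74 and 7.85 FPKM in control vehicle tumors. Its groups overlapped in both pairs, with fold changes of -0.17 ± 0.15 (PD-L2) and 0.12 ± 0.15 (control).

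Among the 5 genes of the central spindle and cytokinesis, all 5 had a fold change above 0 in control tumors (median 0.081) and 4 of 5 had one below 0 in PD-L2 tumors (median -0.18); none passed. Anln, which encodes anillin, a scaffold of the contractile ring, measured 33.6, 30.9 and 35.7 FPKM in PD-L2 BRAFi tumors, within the 26.4, 29.2 and 47.5 FPKM of PD-L2 vehicle tumors. It measured 38.04, 47.7 and 47.4 FPKM in control BRAFi tumors against 24.4, 40.9 and 32.98 FPKM in control vehicle tumors, with overlap. Kif23, a kinesin of the central spindle, measured 10.6, 12.3 and 10.1 FPKM in PD-L2 BRAFi tumors against 13.1, 12.3 and 14.9 FPKM in PD-L2 vehicle tumors. In control tumors it measured 14.1, 10.01 and 14.6 FPKM under BRAFi against 10.1, 13.3 and 13.4 FPKM under vehicle. Ect2, which activates RhoA at the division plane, measured 11.4, 11.7 and 9.88 FPKM in PD-L2 BRAFi tumors against 9.12, 10.6 and 14.9 FPKM in PD-L2 vehicle tumors, and 13.2, 13.7 and 15.5 FPKM in control BRAFi tumors against 9.89, 14.04 and 11.004 FPKM in control vehicle tumors. Kif23 and Ect2 overlapped in both pairs. The kinesin Kif20a and the microtubule bundler Prc1 had fold changes of -0.18 and -0.20 in PD-L2 tumors and 0.081 and 0.067 in control tumors.

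The next question is whether tumors with PD-L2 differed from control tumors within each treatment, with the same libraries as in the comparisons above. Under BRAFi, 38 of the 40 genes had a fold change below 0 in PD-L2 tumors relative to control tumors (51.7% of all genes did), with a median of -0.23 against -0.0094 over all genes. None passed the adjusted threshold in limma, which 0.0743% of all genes passed, and 5 had an unadjusted p under 0.05, all lower (12.5% of the set, against 2.81% of all genes): Cenpa, Hmmr, Ndc80, Kif2c and Espl1. The 3 PD-L2 BRAFi tumors lay below the 3 control BRAFi tumors without overlap for 11 genes (27.5%, against 4.78% of all genes): Ccnb1, Cdk1, Hmmr, Bub1, Ttk, Cenpa, Cenpe, Ndc80, Spc25, Anln and Ect2. The fold changes of the genes named first were -0.40 ± 0.14 for Cenpa, -0.40 ± 0.17 for Hmmr, -0.35 ± 0.15 for Ndc80, -0.30 ± 0.13 for Kif2c and -0.33 ± 0.14 for Espl1, and the smallest adjusted p of the set was 0.579. Foxm1 (0.066 ± 0.16) and Pttg1 (0.031 ± 0.22) were the 2 genes not below 0. Hemoglobin transcripts differed between the same groups: 3 of the 4 tested erythroid markers were higher in PD-L2 BRAFi than in control BRAFi tumors and passed (Hbb-b1 by 2.38 ± 0.34, adjusted p = 0.0454, limma). In the same comparison 11 of the 12 macrophage markers were below 0 (median -0.26, none past the threshold). The 6 tested melanocytic markers split, with 3 below 0 and 3 above (median -0.038), and none passed. Sox10 (-1.85 ± 0.86) was the lowest of them and Ednrb (0.66) the highest. Of the endothelial markers 7 of 9 (median 0.27) and of the muscle markers 6 of 7 (median 0.87) were above 0. The part of these markers in the result was not tested. The median of the set ran from -0.34 to -0.18 when each tumor was left out in turn, with the lowest value without control BRAFi tumor 2 and 34 to 40 genes below 0. Most related lists (described further on) shared the sign. Below 0 were 35 of 40 other spindle and cytokinesis, 17 of 20 condensin and cohesin and 19 of 25 other G2/M genes. So were 25 of 40 DNA replication, 26 of 37 other kinetochore and 8 of 17 anaphase-promoting complex genes.

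Under vehicle, 14 of the 40 genes had a fold change below 0 in PD-L2 tumors relative to control tumors (48.1% of all genes), with a median of 0.047 (0.0068 over all genes). None of the 40 and 0.0% of all genes passed in limma, and at an unadjusted p under 0.05 only Cdca8 did, at 0.29 ± 0.11 (2.5% of the set, against 6.17% of all genes on the higher side). The 3 PD-L2 vehicle tumors lay above the 3 control vehicle tumors without overlap for Foxm1, Cdca8, Incenp and Mki67, 10% of the set and 10% of all genes, so the count is that of the background. The sign of the median rests on single tumors: it was -0.051 without control vehicle tumor 1 and -0.045 without PD-L2 vehicle tumor 3, each with 25 genes below 0. Averaged over both treatments, none of the 40 passed (0.099% of all genes did), 2 had an unadjusted p under 0.05, both lower (5.0% of the set, against 6.02% of all genes), Cenpa (-0.32 ± 0.097) and Cdk1 (-0.21 ± 0.090), and 34 had a fold change below 0 (49.6% of all genes).

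The interaction, the fold change under BRAFi in PD-L2 tumors less the one in control tumors, was below 0 for 39 of the 40 genes (51.6% of all genes), with a median of -0.28 against -0.011 over all genes. The 40 values are not separate pieces of evidence, because the genes vary together between tumors and all rest on the same 12 libraries. None passed in limma (0.0165% of all genes did), the smallest adjusted p was 0.956, and an unadjusted p under 0.05 was reached by Cdca8 alone, at -0.45 ± 0.15 (2.5% of the set, against 2.29% of all genes on the lower side). The lowest values were -0.51 ± 0.26 for Tpx2 and -0.48 ± 0.30 for Mki67, and Pttg1 was the gene above 0, at 0.32 ± 0.32. A difference between the responses was thus not shown for any single gene. The median stayed between -0.42 and -0.16 over the 24 alternatives, with 34 to 39 genes below 0, and was -0.17 without PD-L2 vehicle tumor 3. In the interaction the 4 tested erythroid markers were above 0, each at an unadjusted p under 0.05 (median 2.26). All 9 endothelial (median 0.59), all 7 muscle (median 1.31) and 9 of the 12 macrophage markers (median 0.47) were also above 0, with none at that p. None of these passed, and their part in the result was not tested. The interaction is built from the same groups as the comparisons above and adds no independent measurement. It also followed transcript length (described further on). Most related lists (described further on) shared the sign. Below 0 were 35 of 40 other spindle and cytokinesis, 19 of 20 condensin and cohesin and 20 of 25 other G2/M genes. So were 29 of 40 DNA replication, 22 of 37 other kinetochore and 8 of 17 anaphase-promoting complex genes.

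Fold changes under BRAFi followed transcript length, within the set and in the whole table. Lengths are those of GENCODE vM21 transcripts (the median over a gene's basic protein-coding transcripts), from 720 nt for Pttg1 to 11130 nt for Cenpf, and were available for all 40 genes and 12039 of the 12117 tested. Across the 40 genes, Spearman's rho between length and fold change was 0.70 in PD-L2 tumors and 0.80 in control tumors, against 0.40 and 0.46 across the 12039 genes. For the interaction it was -0.47 across the 40 genes and -0.21 across the 12039. For PD-L2 against control under BRAFi it was -0.22 and -0.13. These are descriptions across genes, which are not independent. The 20 longer genes (2939 to 11130 nt) had a median fold change of -0.15 in PD-L2 tumors and 0.19 in control tumors. All 4999 genes of that length range had 0.13 in PD-L2 tumors and 0.20 in control tumors. The 20 shorter genes (720 to 2814 nt) had a median of -0.27 in PD-L2 tumors and -0.087 in control tumors, where all 5939 genes of that range had -0.093 in PD-L2 tumors and -0.13 in control tumors. By these medians the set lay near other genes of its length in control tumors, while in PD-L2 tumors both the longer and the shorter genes lay below them. The medians by length were not recomputed with tumors left out, and no gene of the set passed for the interaction. In the interaction 100% of the 20 longer and 95.0% of the 20 shorter genes were below 0. All genes of those ranges had 61.1% and 44.8% below 0. For PD-L2 against control under BRAFi the share was 95.0% in both, against 57.1% and 48.3%. With a trend on length removed from every library, 37 of the 40 genes had a fold change below 0 in PD-L2 tumors (median -0.23) and 19 in control tumors (median 0.0077), and 38 were below 0 in PD-L2 against control tumors under BRAFi. After that step Birc5 no longer passed in control tumors (-0.45, adjusted p = 0.0796, limma). On average, Birc5 (-0.52) and Aurkb (-0.33) still passed, Cdca8 (-0.13), Cenpa (-0.076) and Ccnb2 (-0.28) did not, and Foxm1 and Espl1 now did.

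**Figure D5:**
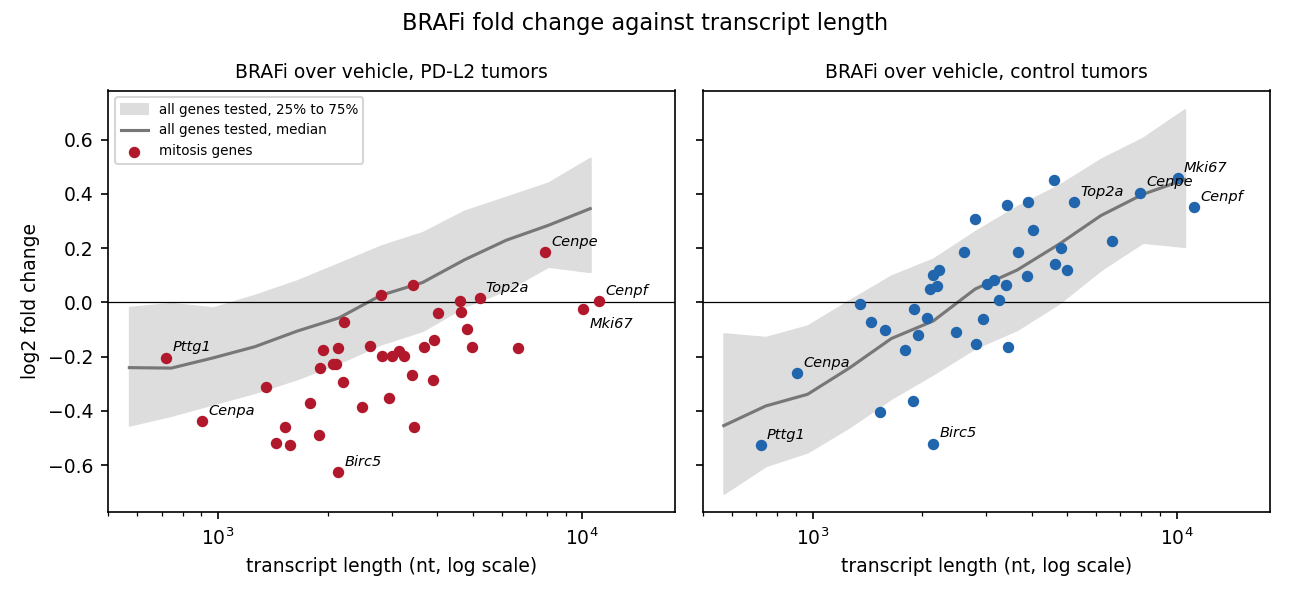
log2 fold change under BRAFi against transcript length (log axis) for the 40 mitosis genes (points), with the median (gray line) and the 25th to 75th percentile (gray band) of all tested genes in length bins. In control tumors the points lie near the gray line, and in PD-L2 tumors most lie below it. Spearman's rho between length and fold change across the 40 genes was 0.80 in control tumors and 0.70 in PD-L2 tumors.

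The genes varied together from tumor to tumor. Over the 12 libraries, 699 of the 780 pairs of genes had a Pearson r above 0 and the median r was 0.52, and within groups (each tumor's deviation from its group mean) the median was 0.58; library scaling and tumor composition are shared by all pairs. The closest pair was Bub1 and Anln (r = 0.96), and the lowest r was that of Pttg1 and Mki67 (-0.64), the shortest and the second longest gene. Within groups, the r of each gene with the mean of the other 39 was above 0.5 for 34 genes, highest for Aurkb (0.94), Kif23 (0.93) and Kif4 (0.93) and lowest for Pttg1 (-0.0064) and Bub3 (0.024). Birc5 (0.49) and Cenpa (0.40), which fell on average under BRAFi, were among the 6 at or below 0.5. Of the other 12077 tested genes, those closest to the mean of the 40 over the 12 libraries were Zfp365 (r = 0.94), Nek2 (0.93), Mcm10 (0.90), Spag5 (0.90), Cep55 (0.89), Tacc3 (0.89), Melk (0.88), Cdca5 (0.87), Pbk (0.86) and Lrr1 (0.86), of which 8 stand in the lists of division and replication genes below.

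Other genes of division, taken as 6 lists that share no member with the 40, were counted in the same way. None of their genes passed for BRAFi in PD-L2 tumors or for PD-L2 against control under either treatment. The first counts below are therefore for BRAFi in control tumors, where 7.42% of all genes passed (425 higher and 474 lower of 12117). Counts for BRAFi averaged over both kinds of tumor come last. Fold changes under BRAFi followed transcript length in the whole table, and these lists were not matched for length. Without control vehicle tumor 2 none of these calls remained, since limma then called 0 of all genes, and the totals without other tumors are given above. Of 20 condensin and cohesin genes, 4 rose and none fell, with the smallest p for the cohesin loader Nipbl (0.73 ± 0.14), the cohesin subunit Stag2 (0.56 ± 0.13) and the cohesin acetyltransferase Esco1 (0.50 ± 0.12). Their median was 0.36 in control tumors and 0.11 in PD-L2 tumors. Of 37 other kinetochore and centromere genes, 2 fell, Spc24 of the Ndc80 complex (-1.03 ± 0.17) and the centromere DNA-binding protein Cenpb (-0.42 ± 0.11), and none rose; 28 were below 0 in PD-L2 tumors. Of 17 genes of the anaphase-promoting complex, the subunit Anapc13 fell (-0.84 ± 0.19) and the subunit Anapc1 rose (0.62 ± 0.15), and 11 were below 0 in each kind of tumor. Of 40 other spindle and cytokinesis genes, Fam64a fell (-0.50 ± 0.12) and the microtubule polymerase Ckap5 rose (0.70 ± 0.17), and 32 were below 0 in PD-L2 tumors against 17 in control tumors. Of 25 other G2/M regulators and MuvB genes, the histone variant H2afx fell (-0.69 ± 0.17). Of 40 DNA replication genes, 4 fell and none rose, with thymidine kinase Tk1 (-0.82 ± 0.14), Gins2 of the replicative helicase (-0.72 ± 0.11) and the polymerase subunit Pold1 (-0.35 ± 0.087) at the lowest p, and 36 of 40 were below 0 in PD-L2 tumors against 26 in control tumors. The medians of the last 5 lists in PD-L2 tumors were -0.15 (kinetochore), -0.049 (anaphase-promoting complex), -0.19 (spindle and cytokinesis), -0.080 (G2/M) and -0.23 (replication), beside -0.20 for the 40 mitosis genes. Averaged over both kinds of tumor, 11.2% of all genes fell under BRAFi and 24.7% passed in either direction. There 12 of the 40 DNA replication genes fell and 0 rose, and 9 of the 20 condensin and cohesin genes rose and 1 fell. Calls lower and higher were 6 and 2 of 17 for the anaphase-promoting complex and 6 and 1 of 37 for the kinetochore list. They were 5 and 1 of 40 for spindle and cytokinesis and 6 and 2 of 25 for G2/M. For the 40 mitosis genes they were 5 and 0.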

How the data were processed

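Poly(A) RNA was sequenced without strand information, per the labels' protocols, which say paired-end while the series' design text says single-end. The authors deposited 1 table of FPKM per gene and library. The submitters' processing notes name TopHat, TopHat2, Cuffnorm, Cuffdiff and build mm9; neither their roles nor versions are given in the sources used here. The table holds FPKM and not counts, and low FPKM values gave no common step per read (1716 low genes, 66 library pairs, at most 0.0664 of genes at 1 ratio within 0.1 log2), so depth and counting intervals are unknown and no count test was run. Overlapping genes could share reads.

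Genes averaging 1 FPKM or more (12117 of 23940; 4192 were at 0 throughout) were fitted on log2(FPKM + 1) with limma 3.58.1 in R 4.3.3, as 4 group means over all 12 libraries, eBayes with trend, two-sided, Benjamini-Hochberg adjusted over all genes, threshold 0.05. The pseudocount understates fold changes of low genes. The fit was tested on simulated data. No 2 libraries were identical. The members, roles, lists and tests were chosen with earlier results of these data known. Values in every tumor are given for members past the threshold and, per role, for those with the smallest p in each BRAFi comparison and in the averaged PD-L2 difference and with the highest mean; other lists name up to 3 genes past the threshold with the smallest p. Alternatives covered the pseudocount, the filter, 3 scalings, the libraries fitted, the variance model, array weights, a replicate block, a length trend and leaving out each tumor. Promoter windows (RefSeq, GRCm38.p6) and lengths (GENCODE vM21) were matched by symbol only, since the table's build differs.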

Additional observations from a re-analysis of the deposited data

How the results depend on the processing

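Over 25 alternatives (24 for the interaction and the averages, for which a fit of only the groups compared was not run), the set's median stayed below 0 for BRAFi in PD-L2 tumors (-0.25 to -0.11, the bound nearest 0 without PD-L2 vehicle tumor 3), for PD-L2 against control under BRAFi (-0.43 to -0.18) and for the interaction (-0.42 to -0.16, and -0.17 without PD-L2 vehicle tumor 3). The number of genes called for BRAFi in control tumors, 1 at first, was 0 with no filter, with libraries rescaled to the same FPKM sum, with only the groups compared, and with the length trend removed without or with the replicate block. It was 2 with the replicate block (Birc5, Pttg1), 3 with array weights (Aurkb, Birc5, and Mki67, which was higher), and 0 to 1 when each tumor was left out. Rescaling to the same sum shifted the median of all genes to 0.17 for BRAFi in control tumors and to -0.19 for PD-L2 against control under BRAFi; there the set had 6 genes below 0 with a median of 0.24, and a median of -0.43. Quantile normalization gave a median of -0.0014 in control tumors. Left-out tumors gave 9 to 23 genes below 0 with a median of -0.049 to 0.15 for BRAFi in control tumors, and 4 to 25 genes with a median of -0.051 to 0.11 for PD-L2 against control under vehicle. The averaged BRAFi count of 5 was 3 at the same sum (Aurkb, Birc5, and Cenpe, which was higher), 10 with array weights (Cenpe higher among them), 1 with the length trend and block (Birc5), and 3 to 8 with tumors left out, which includes Cenpe as higher without control vehicle tumor 3 or PD-L2 vehicle tumor 3. For BRAFi in PD-L2 tumors it was 0 to 1 with tumors left out. Array weights, whose estimation did not converge and gave PD-L2 BRAFi tumor 1 a weight of 15.7 against 0.327 to 3.10 elsewhere, called 12 genes for BRAFi in PD-L2 tumors, 14 for PD-L2 under BRAFi, 3 under vehicle (Cdca8 higher among them; 29 below 0, median -0.12) and 20 averaged. The cause of these changes was not tested. Same-numbered tumors did not deviate together over all genes (r = -0.37 to 0.24). With 3 tumors per group this cannot settle whether the numbers mark a shared origin, and the labels name no pairing. The block changed no other count of calls beyond 1.5 times. Further definitions of transcript length, chosen after seeing the data, gave the 40 genes rho of 0.70 and 0.60 in control tumors and 0.65 and 0.52 in PD-L2 tumors. Across the 12039 genes they gave 0.48 and 0.37 in control tumors and 0.43 and 0.32 in PD-L2 tumors.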
